A study of Mus musculus with 6 samples.

Results

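The genes of creatine synthesis and creatine cycling were followed in mouse fat cell cultures that were Ythdf1 knockout or wild type. The members were 8 genes taken by name, Gatm, Gamt, Slc6a8, Ckb, Ckm, Ckmt1, Ckmt2 and Alpl, and each was found as 1 of the 53801 rows of the deposited gene count table. Stromal vascular fraction cells, the mixed non-fat-cell fraction of adipose tissue that contains adipocyte progenitors, came from inguinal white fat of Ythdf1 knockout mice (3 libraries) and wild-type mice (3 libraries). Both groups had been cultured and put through adipogenic induction for 4 days before RNA was taken, and the series calls the 3 samples of a genotype biological replicates. The sources used here give no strain, no age, no account of which part of Ythdf1 was deleted and no word on pooling of animals. Ythdf1 encodes a cytoplasmic reader of m6A-marked RNA. Its counts were 820, 754 and 892 in knockout libraries and 1114, 1005 and 1056 in wild-type libraries, so that most of its signal remained in the libraries labelled knockout and the gene-level count checks the labels only in part.

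Libraries held between 16619605 and 20089138 counts. Levels are given as CPM (counts relative to the scaled library total), and 3 counts corresponded to between 0.146 and 0.185 CPM. Markers of adipocytes, the labelled cell type, were present in both genotypes, and the 15 genes summed to between 19560 and 25930 CPM in knockout and between 4331 and 6815 CPM in wild type. All 15 were higher in knockout (median log2 fold change 2.22). Markers of fibroblasts and progenitors summed to between 18280 and 19570 CPM in knockout and between 38870 and 42170 CPM in wild type, with 9 of 12 lower and 0 higher. The sum of 10 macrophage markers was 783 CPM in knockout replicate 3, against 293 and 295 CPM in the other knockout libraries and between 90.1 and 164 CPM in wild type, with 9 of 10 higher in knockout and 0 lower. These counts are from the test described below, by which 22.6% of all genes tested were higher and 21.7% lower. In such bulk RNA, fewer cells of a type and less RNA per cell cannot be told apart.

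Creatine is made in a pair of steps. Glycine amidinotransferase (Gatm) joins the amidino group of arginine to glycine to give guanidinoacetate, and guanidinoacetate methyltransferase (Gamt) methylates it, using S-adenosylmethionine. The sodium- and chloride-dependent carrier Slc6a8 brings creatine into cells. Creatine kinases pass phosphate between ATP and creatine: Ckb is the cytosolic brain-type enzyme, Ckm the cytosolic muscle type, Ckmt1 the ubiquitous mitochondrial type and Ckmt2 the sarcomeric mitochondrial type. In mouse thermogenic fat a futile cycle of creatine phosphorylation and phosphocreatine hydrolysis has been described, in which Ckb and the tissue-nonspecific alkaline phosphatase Alpl have been given roles.

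Ckb and Alpl were lower in knockout cultures, at 0.712-fold and 0.232-fold of the wild-type level, and the trace of Ckmt1 RNA in wild type was nearly missing from knockout. Gamt was 1.37-fold higher, a small difference whose call was not stable. Slc6a8, with the highest count of the 8 genes, and Gatm did not pass the test. Ckm and Ckmt2 were too low to test, with at most 9 counts in a library. Of the 6 members tested, 3 were lower and 1 higher at an adjusted p of 0.05 (edgeR, quasi-likelihood F test, adjusted over all genes by Benjamini-Hochberg). Over all 14816 genes tested, 44.3% passed, 21.7% lower and 22.6% higher, so a change in either direction was common among genes of any kind. The groups did not overlap, with knockout lower, for 3 of the 6, against 27.3% of all genes tested. With knockout higher this held for 1, against 27.9%. Ckmt1, which is in both counts of lower members, entered the test through its wild-type counts alone. The fall of Ckb and Alpl ran opposite to the rise of the adipocyte markers.

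**Figure D1:**
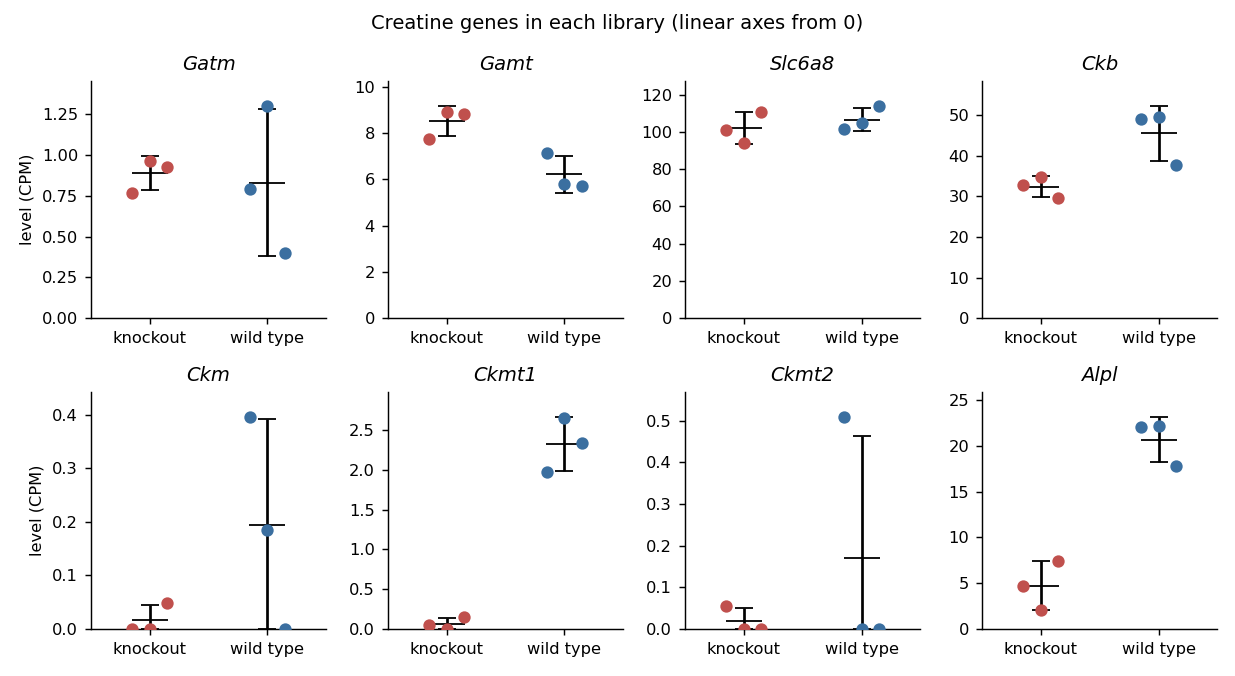
Level of each of the 8 creatine genes in CPM, on linear axes that start at 0 and differ between panels. Each point is a library, and bars give the mean and SD of the 3 libraries of a genotype, knockout left and wild type right. Knockout and wild-type points are apart for Gamt, Ckb, Ckmt1 and Alpl and overlap for the other 4 genes.

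The start regions of the genes that moved and were read by more than traces of RNA, Ckb, Alpl and Gamt, are shown to set their letters side by side. Each holds 250 bases before and 50 bases after an annotated start, 5′ to 3′ on the gene's strand, from RefSeq on GRCm38.p6. Capitals mark the TATA box, spelled TATAAA, as well as the CCAAT box and the GC box, spelled GGGCGG, each on either strand. Ckb lies on the minus strand at chr12:111672289-111672588, Alpl (its outer start) on the minus strand at chr4:137796335-137796634, and Gamt on the minus strand at chr10:80260963-80261262.
Ckb: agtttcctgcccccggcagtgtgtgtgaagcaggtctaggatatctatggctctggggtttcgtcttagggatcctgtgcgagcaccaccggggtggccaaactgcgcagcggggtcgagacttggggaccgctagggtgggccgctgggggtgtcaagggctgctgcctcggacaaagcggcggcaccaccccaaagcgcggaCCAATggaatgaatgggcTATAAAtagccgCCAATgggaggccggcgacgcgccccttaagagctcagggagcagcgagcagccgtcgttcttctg
Alpl: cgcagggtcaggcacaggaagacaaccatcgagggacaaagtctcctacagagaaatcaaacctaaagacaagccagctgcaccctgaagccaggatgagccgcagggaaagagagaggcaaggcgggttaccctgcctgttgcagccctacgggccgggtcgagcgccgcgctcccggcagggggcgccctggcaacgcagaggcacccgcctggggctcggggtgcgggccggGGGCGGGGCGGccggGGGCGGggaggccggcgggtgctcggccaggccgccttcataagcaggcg
Gamt: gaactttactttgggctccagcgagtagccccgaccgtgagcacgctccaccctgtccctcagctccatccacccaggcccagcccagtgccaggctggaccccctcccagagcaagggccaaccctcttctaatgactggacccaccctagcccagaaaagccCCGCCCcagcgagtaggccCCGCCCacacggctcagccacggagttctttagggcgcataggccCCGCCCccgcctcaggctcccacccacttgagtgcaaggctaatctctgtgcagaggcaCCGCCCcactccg
The Ckb window had TATAAA at position -28 and CCAAT at positions -46 and -16, counted from the start. The Alpl window had neither and held 3 GC boxes from position -15 to just past the start, the first pair overlapping, and Gamt had 4 GC boxes, all on the opposite strand. Of 32851 windows of this length in the table, 13.6% held TATAAA, 37.4% CCAAT and 35.7% GGGCGG. The E-box CANNTG, found in 72.3% of all windows, matched once in each of the Alpl and Gamt windows shown and not in that of Ckb. The estrogen-related receptor element TNAAGGTCA (in 1.28% of all windows), the direct repeat AGGTCANAGGTCA bound by PPAR factors (0.0396%), the cAMP response element TGACGTCA (1.79%) and the C/EBP pattern TTGCNNAA (10.8%), searched on both strands, had no match in any of the 9 windows of the 7 members in the table. These are matches of letters in a short window and say nothing of binding.

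Synthesis began with a low level of Gatm. Gatm (ENSMUSG00000027199, chromosome 2, 122594467 to 122611303, minus strand, GRCm38) had 14, 17 and 19 counts in knockout libraries and 14, 21 and 7 counts in wild-type libraries. That was 0.770, 0.966 and 0.926 CPM in knockout and 0.792, 1.30 and 0.400 CPM in wild type. The knockout values lay inside the wild-type range, which spanned 3.24-fold between its highest and lowest library. The log2 fold change was 0.11 with a 95% interval from -0.88 to 1.09 (edgeR adjusted p = 0.87). As a fold the interval ran from 0.544 to 2.13, and differences inside it were not detectable at this depth. The sign turned without wild-type replicate 3 (-0.23).

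Gamt, the methyltransferase of the next step (ENSMUSG00000020150, chromosome 10, 80258151 to 80261012, minus strand), had 141, 157 and 181 counts in knockout and 126, 94 and 100 counts in wild type. Its level was 7.75, 8.92 and 8.82 CPM in knockout libraries and 7.13, 5.81 and 5.72 CPM in wild-type libraries. The groups did not overlap, but the lowest knockout library and the highest wild-type library lay close together. Means were 8.50 ± 0.648 CPM in knockout cultures and 6.22 ± 0.789 CPM in wild-type cultures (SD, n = 3 each). The log2 fold change was 0.45 ± 0.16 (SE), with a 95% interval from 0.09 to 0.81 and an edgeR adjusted p of 0.041. The call ended under 10 of 13 alternatives, with adjusted p-values between 0.0339 and 0.134 over all of them. It ended when any library other than wild-type replicate 1 was left out.

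The carrier gene Slc6a8 (ENSMUSG00000019558, chromosome X, 73673150 to 73682502, plus strand) was read by 1843, 1658 and 2275 counts in knockout and 1798, 1694 and 1990 counts in wild type. It was at 101, 94.2 and 111 CPM in knockout libraries and 102, 105 and 114 CPM in wild-type libraries. The groups overlapped almost fully. The log2 fold change was -0.06 ± 0.09 (SE; edgeR adjusted p = 0.60), and its 95% interval as a fold ran from 0.836 to 1.097. This was the narrowest interval of the 6 members tested.

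Ckb, the cytosolic kinase gene (ENSMUSG00000001270, chromosome 12, 111669361 to 111672338, minus strand), had 598, 611 and 606 counts in knockout and 867, 802 and 661 counts in wild type. Levels were 32.9, 34.7 and 29.5 CPM in knockout libraries and 49.0, 49.6 and 37.8 CPM in wild-type libraries. All 3 knockout libraries lay below all 3 wild-type libraries, with wild-type replicate 3 nearest to them. Means were 32.4 ± 2.63 CPM in knockout cultures and 45.5 ± 6.65 CPM in wild-type cultures (SD, n = 3 each). The log2 fold change was -0.49 ± 0.12 (SE), with a 95% interval from -0.75 to -0.23 and an edgeR adjusted p of 0.0054. With 1 library left out it ran from -0.61 to -0.42 and stayed past the threshold each time. The smooth muscle and myofibroblast markers moved the same way, with 7 of 8 lower and 0 higher. Their summed level was 163 to 194 CPM in knockout and 705 to 1033 CPM in wild type, and no marker of that list was at 0. Among wild-type libraries the sum was lowest in replicate 3, as for Ckb. Among knockout libraries the sum was highest in replicate 3, where Ckb was lowest, and lowest in replicate 2, where Ckb was highest. Their part in the fall of Ckb was not tested. The processed pseudogenes Ckb-ps1 and Ckb-ps2 had 0 counts in every library.

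Ckmt1, the ubiquitous mitochondrial kinase gene (ENSMUSG00000000308, chromosome 2, 121357714 to 121363737, plus strand), had 1, 0 and 3 counts in knockout and 35, 43 and 41 counts in wild type. The wild-type libraries were alike at 1.98, 2.66 and 2.34 CPM, and each knockout library was at or under the floor of 3 counts. The ratio of the summed counts, 4 in knockout over 119 in wild type, scaled by library size, was 0.0307, with an exact 95% interval from 0.00822 to 0.0806 that covers counting error only. The fitted log2 fold change was -4.91 ± 0.57 (SE; edgeR adjusted p = 4.04e-05), and -6.05 without knockout replicate 3. Ckmt1 entered the test through its wild-type counts alone. Some genes of epithelium were spread over the libraries in the same way: Epcam, a surface protein of epithelial cells, was at 0.0677 ± 0.0737 CPM in knockout cultures and 3.83 ± 0.839 CPM in wild-type cultures. Of 12 epithelial markers 9 were tested, 7 of which were lower and 0 higher. Epcam, Cdh1, Vil1 and Cldn7 entered the test through their wild-type counts alone. Lgals4, with 195, 226 and 185 counts in knockout and 166, 145 and 128 counts in wild type, did not pass. The summed level of all 12 was 61.5 to 78.0 CPM in knockout and 82.3 to 96.5 CPM in wild type and was carried by Krt19, at 43.6 ± 6.41 against 41.1 ± 6.52 CPM. The part of epithelial RNA in the Ckmt1 count was not tested. Ckmt1 overlaps the opposite-strand gene Strc by 10 bases, and Strc had at most 2 counts in a library.

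Ckm and Ckmt2, the kinases of muscle, were at or near 0. Ckm (ENSMUSG00000030399, chromosome 7, 19404776 to 19422841, plus strand) had 0, 0 and 1 counts in knockout and 7, 3 and 0 counts in wild type. Ckmt2 (ENSMUSG00000021622, chromosome 13, 91853387 to 91876885, minus strand) had 1, 0 and 0 counts in knockout and 9, 0 and 0 counts in wild type. Wild-type replicate 1 therefore held 7 of the 10 wild-type counts of Ckm and all 9 of Ckmt2. The ratio of the summed counts, knockout over wild type, scaled by library size, was 0.0912 for Ckm (exact 95% interval 0.0021 to 0.641) and 0.101 for Ckmt2 (0.00231 to 0.731), where the intervals cover counting error only and not the spread between wild-type libraries. Without the low-count filter the edgeR adjusted p-values were 0.17 and 0.22. The same library held 13 counts of Myh1, 7 of Myh2, 15 of Myh4 and 8 of Tnni2, genes of adult fast muscle fibres. These had 0 or 1 counts in every knockout library and at most 2 in the other wild-type libraries. Mb had 2, 1 and 1 counts in knockout and 22, 7 and 9 counts in wild type, also highest in wild-type replicate 1. Several other markers of that list were not spread in this way. Mylpf had 26, 20 and 12 counts in knockout and 33, 7 and 14 counts in wild type. Casq1 had 24, 10 and 14 against 16, 4 and 17 counts, and Tnnt3 had 70, 55 and 59 against 101, 52 and 89 counts. The 14 skeletal muscle markers summed to 10.6 to 11.1 CPM in knockout and 20.3 to 33.4 CPM in wild type, highest in wild-type replicate 1. Of the 6 tested, Actn3 was lower in knockout (log2 fold change -2.01) and none was higher. The muscle transcription factor gene Myog was at 0 in all 6 libraries. Whether RNA of muscle fibres gave the Ckm and Ckmt2 counts was not tested. The antisense genes A930016O22Rik, within Ckm, and 1700119I11Rik, within Ckmt2, had 0 counts throughout.

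**Figure D2:**
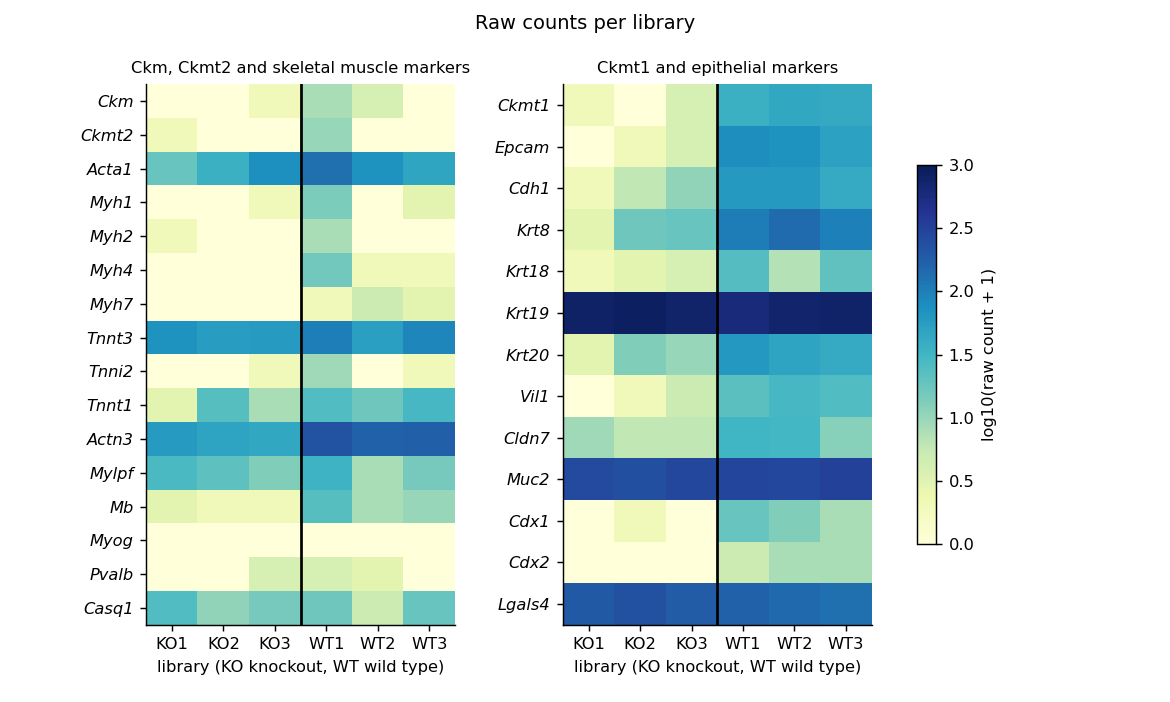
Raw counts, shaded on a log10(count + 1) scale, of Ckm and Ckmt2 above 14 skeletal muscle markers (left) and of Ckmt1 above 12 epithelial markers (right). Columns are the 6 libraries, knockout left and wild type right of the black line. Myh1, Myh2, Myh4 and Tnni2 are shaded like Ckm and Ckmt2 in wild-type replicate 1. Epcam and Vil1 are shaded like Ckmt1 in all 3 wild-type libraries. Other markers, such as Mylpf and Casq1 (left) and Krt19 and Lgals4 (right), are shaded in every library.

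Per kilobase of merged exons, at which genes can be set side by side, the 4 kinase genes summed to 11.4, 12.0 and 10.3 CPM per kb in knockout libraries and 18.2, 18.3 and 14.0 CPM per kb in wild-type libraries. Ckb made up 99.5%, 100% and 99.3% of that sum in knockout and 93.0%, 93.8% and 93.3% in wild type. The remainder in wild type was mostly Ckmt1, at 4.35%, 5.83% and 6.71%, against 0.193%, 0% and 0.57% in knockout. Kinase RNA was thus nearly all Ckb in both genotypes, and this make-up is given without a test.

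Alpl, the alkaline phosphatase gene (ENSMUSG00000028766, chromosome 4, 137741733 to 137796384, minus strand), had 86, 36 and 153 counts in knockout and 390, 359 and 312 counts in wild type. Levels were 4.73, 2.05 and 7.46 CPM in knockout libraries and 22.1, 22.2 and 17.8 CPM in wild-type libraries. Every knockout library was far below the wild-type libraries, but they spread 3.65-fold among themselves, against 1.24-fold in wild type. The log2 fold change was -2.11 ± 0.36 (SE), with a 95% interval from -2.95 to -1.26 and an edgeR adjusted p of 0.0023. It ran from -2.60 without knockout replicate 3 to -1.75 without knockout replicate 2, past the threshold each time. Knockout replicate 3, the highest of the knockout libraries for Alpl, was also the highest for the macrophage markers. Knockout replicates 1 and 2 had like macrophage sums, 293 and 295 CPM, but Alpl at 4.73 and 2.05 CPM. Wild-type libraries had lower macrophage sums and higher Alpl than any knockout library. The part of macrophages was not tested. Of 9 osteoblast markers, listed because Alpl is abundant in mineralising cells, 3 were tested. Runx2 and Sp7, transcription factors of the osteoblast lineage, were lower by log2 fold changes of -0.30 and -2.10, and Bmp8a did not pass. Their summed level was 28.2 to 28.9 CPM in knockout and 35.8 to 37.0 CPM in wild type. The secreted markers of mature osteoblasts, Bglap, Bglap2 and Ibsp, had at most 8 counts in a library, and their part in the Alpl values was not tested.

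**Figure D3:**
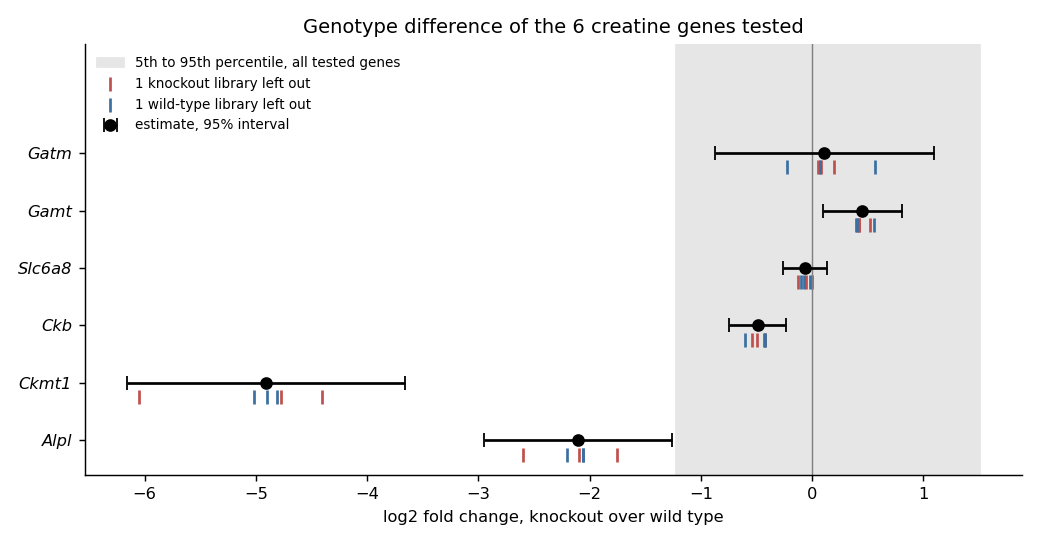
Log2 fold change, knockout over wild type, of the 6 creatine genes that could be tested. Black points and bars give the estimate and its 95% interval, red and blue ticks the estimates with 1 knockout or 1 wild-type library left out, and the grey band the 5th to 95th percentile of all tested genes (-1.22 to 1.51). Ckmt1 and Alpl lie below the band, Ckb and Gamt within it on either side of 0, and the intervals of Gatm and Slc6a8 span 0.

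The order of the levels per kilobase was the same at its top in both genotypes. In knockout it ran from Slc6a8 (19.6 ± 1.61 CPM per kb) through Ckb (11.2 ± 0.908), Gamt (5.885 ± 0.449), Alpl (1.18 ± 0.671) and Gatm (0.296 ± 0.0346) to Ckmt1, Ckmt2 and Ckm, all under 0.03 CPM per kb. In wild type it ran from Slc6a8 (20.5 ± 1.20) through Ckb (15.7 ± 2.30), Alpl (5.13 ± 0.614), Gamt (4.305 ± 0.547), Ckmt1 (0.932 ± 0.136) and Gatm (0.277 ± 0.150) to Ckmt2 and Ckm. The ranges over libraries of neighbouring genes did not overlap down to Gatm in knockout. In wild type Alpl and Gamt overlapped, at 5.47, 5.50 and 4.42 against 4.94, 4.02 and 3.96 CPM per kb, and Gatm, Ckmt2 and Ckm overlapped as well. In knockout Ckmt1, Ckmt2 and Ckm overlapped. The methyltransferase gene Gamt was thus read at a higher level per length than the amidinotransferase gene Gatm in every library.

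Genes listed around the supply of the arginine, glycine and methyl groups of creatine moved in both directions. Of 21 tested, 4 were higher and 6 lower (median log2 fold change -0.11, against 0.01 over all genes tested). Over all genes tested 22.6% were higher and 21.7% lower. The counts of this list and of the other lists are to be read beside these shares. Ass1, which makes argininosuccinate in arginine synthesis, was at 59.0 ± 11.9 CPM in knockout cultures and 189 ± 36.7 CPM in wild-type cultures, a log2 fold change of -1.68. The next enzyme gene, Asl, rose by 0.55 on the log2 scale. The cationic amino acid carrier genes Slc7a1 and Slc7a2 were lower by log2 fold changes of -0.54 and -0.82, as were Phgdh of serine synthesis (-0.89), the ornithine aminotransferase gene Oat (-0.42) and Ahcyl1 (-0.37). Gldc, the decarboxylase of glycine breakdown, was at 24.3 ± 2.07 CPM in knockout cultures and 8.04 ± 2.48 CPM in wild-type cultures (log2 fold change 1.60). The serine hydroxymethyltransferase gene Shmt1 and the S-adenosylmethionine synthase gene Mat2a were the other rises, at log2 fold changes of 0.84 and 0.36. All of these passed an edgeR adjusted p of 0.05. The hydrolase gene Ahcy, a relative of Ahcyl1, did not pass. It had 515, 526 and 471 counts in knockout and 617, 548 and 503 counts in wild type.

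Among 6 tested creatine efflux carriers and relatives of Slc6a8, 2 were higher and 1 lower (median log2 fold change 0.16). Slc16a12, a carrier that exports creatine, was at 4.67, 3.24 and 6.09 CPM in knockout and 1.70, 1.79 and 2.51 CPM in wild type. The groups did not overlap, as held for 55.2% of all genes tested, and the log2 fold change was 1.22 ± 0.29 (SE; edgeR adjusted p = 0.0049). Slc6a13, a carrier of GABA and taurine, rose by 2.01 on the log2 scale, and the glycine carrier gene Slc6a9 had a log2 fold change of -1.05. The taurine carrier gene Slc6a6, the list member with the most counts, was at 119 ± 14.6 CPM in knockout cultures and 110 ± 4.21 CPM in wild-type cultures and fell short of the threshold (edgeR adjusted p = 0.42).

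The mitochondrial carriers and outer-membrane channels of nucleotide and phosphate exchange were higher for 4 of 6 tested and lower for 0 (median log2 fold change 0.32). The ADP/ATP carrier gene Slc25a5 was at 393 ± 60.9 CPM in knockout cultures and 174 ± 20.1 CPM in wild-type cultures (log2 fold change 1.17), and the phosphate carrier gene Slc25a3 rose by 0.49 on the log2 scale. The channel genes Vdac1 and Vdac2 had log2 fold changes of 0.35 and 0.30, the last of which was lost under 5 of 13 alternatives. The other ADP/ATP carrier gene tested, Slc25a4, had 0.04 on that scale, short of the threshold. Slc25a5 and the Vdac genes have pseudogene copies with which reads can be shared.

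Phosphatases and genes of pyrophosphate handling split, 3 higher and 2 lower of 7 tested (median log2 fold change 0.02). Phospho1, a phosphatase gene of mineralising cells, was at 5.39, 7.05 and 3.95 CPM in knockout and 0.848, 1.05 and 0.857 CPM in wild type. Every knockout library was above every wild-type library, opposite to Alpl, and the log2 fold change was 2.56 ± 0.30 (SE; edgeR adjusted p = 3.98e-05). Enpp1, which makes the pyrophosphate that Alpl breaks down, was at 3.30, 3.64 and 4.39 CPM in knockout and 36.1, 32.9 and 21.1 CPM in wild type. The log2 fold change was -2.99 ± 0.21 (SE; edgeR adjusted p = 2.30e-06), and its difference from that of Alpl was not tested. Ank, whose protein moves pyrophosphate out of cells, rose by 1.11 on the log2 scale and Nt5e, the ectonucleotidase, by 2.28, and Enpp3 had a log2 fold change of -1.15. The other alkaline phosphatase genes were at 0 in every library (Akp3 and Alppl2) or had 1 count in all (Alpi).

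Regulators named in work on adipocyte creatine cycling and mitochondrial gene expression were higher for 5 of 7 tested and lower for 0 (median log2 fold change 1.97). Ppargc1a, a coactivator of mitochondrial genes, was at 16.6, 17.2 and 13.7 CPM in knockout and 0.792, 2.90 and 2.40 CPM in wild type (log2 fold change 2.97, edgeR adjusted p = 7.08e-05). Its partner Esrra, the estrogen-related receptor alpha, was at 48.1 ± 7.90 against 21.5 ± 2.06 CPM, and Ppargc1b at 30.0 ± 3.09 against 4.72 ± 1.59 CPM. The adrenergic receptor genes Adrb3 and Adra1a rose by 1.97 and 2.28 on the log2 scale. Gnaq, the G protein gene that acts below Adra1a, had a log2 fold change of -0.15, and Prdm16 had 0.26, and neither passed (edgeR adjusted p = 0.19 and 0.18). Ckb was thus lower in the libraries in which these regulators were higher. Other ATP-consuming or uncoupled cycles of fat had 5 of 7 tested genes higher and 0 lower (median log2 fold change 1.65). Among the 5 were the glycerol kinase gene Gk, at 116 ± 5.45 against 28.6 ± 5.74 CPM, and the uncoupling protein gene Ucp1. The others were Pnpla2 (log2 fold change 2.54), the calcium pump gene Atp2a3 (1.65) and Pck1 (0.70). Pnpla2 was also in the list of adipocyte markers. Ucp1 had 119, 152 and 61 counts in knockout and 5, 2 and 1 counts in wild type, and entered the test through its knockout counts alone, so its fitted log2 fold change of 5.21 rests on few wild-type counts. The widely expressed calcium pump gene Atp2a2 was at 261 CPM against 264 CPM, short of the threshold (edgeR adjusted p = 0.90).

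**Figure D4:**
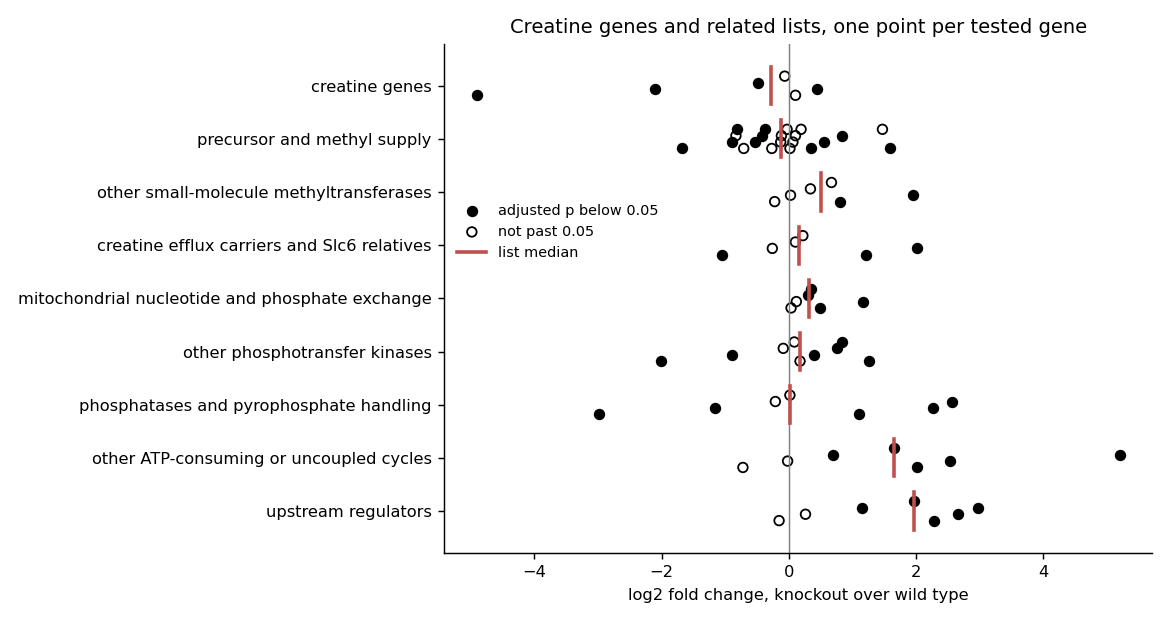
Log2 fold change, knockout over wild type, of every tested gene of the creatine genes and 8 related lists. Filled points passed an edgeR adjusted p of 0.05, open points did not, and red bars are list medians. The medians of the upstream regulators (1.97) and of other ATP-consuming or uncoupled cycles (1.65) lie to the right of that of the creatine genes (-0.28).

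The genes most like each member were found by the root mean square difference between log2 profiles over the 6 libraries, each centred on its own mean, among 10499 genes with a mean of at least 5 CPM. Ckb was closest to Snap47 (difference 0.0349), Ppil1 and Erh. Snap47 was at 46.1 ± 4.57 CPM in knockout cultures and 67.0 ± 10.3 CPM in wild-type cultures. Gamt was closest to Slc25a15 (0.0563), the mitochondrial ornithine carrier gene, and then to Ufd1 and Ttc38. Slc6a8 was closest to Tpr (0.0177), Tfe3 and Tep1. Alpl was closest to Kif26b (0.239) and then to Slc6a17. Ckmt1 was closest to Fmod (0.105), Ncam1 and Tmod2, and Gatm to Rpp30 (0.124), Lrmda and BC005561. For the low genes Ckmt1 and Gatm these differences depend on the 0.5 CPM added before taking logs, and all the profiles reflect the genotype difference and the spread of 6 libraries.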

How the data were processed

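RNA of 6 libraries was measured. Values are the authors' deposited raw counts for each Ensembl gene, with no normalization; STAR and featureCounts were used with mm10 and GRCm38, per the submitters' processing notes. Ribosomal RNA was depleted from total RNA, per the labels' protocols. The sources used here give neither tool versions nor annotation, strandedness or the handling of multiply matching reads. Symbols, coordinates and merged exon lengths were read from the GENCODE mouse annotation, release 21 (GRCm38), in which 53706 of 53801 identifiers were found.

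Genotypes were compared by edgeR 4.0.16 (R 4.3.3): filterByExpr (minimum count 10, minimum total count 15; 14816 genes kept), TMM, robust quasi-likelihood F test with genotype as the term, 2-sided, Benjamini-Hochberg adjustment over all genes at 0.05. The fit was tested on simulated counts. CPM are relative to TMM-scaled totals of the genes kept. Replicates of a genotype were distinct libraries. P-values cover the spread between them and no difference in isolation or culture that coincided with genotype.

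The members and lists were chosen with earlier results of these data known. Named genes were the members, up to 4 genes of each related list with the smallest p, the 2 most abundant markers of each cell type and the nearest profiles, of which a few genes are not reported here; Adra1a, Asl, Ahcyl1, Ak4, Ak5, Atp2a2, Bglap, Epcam, Gnaq, Mat2a, Myh1, Nt5e, Oat, Pck1, Phgdh, Prdm16, Shmt1, Slc25a4, Slc6a6, Sp7 and other genes given by counts alone were named after their values were seen. Alternatives were RLE or upper-quartile factors, DESeq2 1.42.0, no low-count filter, a floor of 1 CPM in 3 samples, a replicate block, a covariate for the suffix L0 or L1 of library names (meaning not stated), and each library left out. Intervals and floors from counts cover counting error only.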

Additional observations from a re-analysis of the deposited data

How the results depend on the processing

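Over 13 alternatives, the count of genes changed stayed between 5276 and 6928 (6561 in the reported fit), and the count of creatine genes changed was 4 or 3. Ckb, Ckmt1 and Alpl kept their direction and passed under all 13, with edgeR or DESeq2 adjusted p-values up to 0.034, 0.000528 and 0.0249. Gamt kept its direction and passed under 3 (RLE factors, the filter of 1 CPM, and without wild-type replicate 1). Its adjusted p was 0.0726 with upper-quartile factors, 0.0715 without the low-count filter, 0.0504 with the name suffix and 0.0668 with DESeq2, and 0.0339 to 0.134 with 1 library left out. Of the 71 named genes past the threshold, 62 stayed past it throughout and 9 did not (Gamt, Vdac2, Tek, Muc2, Runx2, Tubb3, Ppil1, Kif26b and Pck1). None of the 71 turned direction. Gatm was not tested under the filter of 1 CPM.

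Same-numbered libraries of the genotypes did not deviate together (correlations of -0.127, 0.0117 and -0.144 for numbers 1 to 3). Pairs with unlike numbers had correlations from -0.0516 to 0.153. With 3 libraries per genotype these values cannot show whether same-numbered libraries shared an isolation or culture. With the replicate number as a block 6129 genes were changed, 3 of them creatine genes, and Gamt had an adjusted p of 0.0744 and Kif26b of 0.0961.

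The sign turned for genes that had not passed, with the cause not tested. With upper-quartile factors the log2 fold change was -0.032 for BC005561 and -0.018 for Slc25a4. With 1 library left out Gatm ran from -0.23 to 0.57, Cdh5 from -0.16 to 0.71, Krt19 from -0.045 to 0.20, Bmp8a from -0.015 to 0.44, Rpp30 from -0.091 to 0.26, BC005561 from -0.14 to 0.18, Tpr from -0.10 to 0.015, Tep1 from -0.11 to 0.034, Atp2a2 from -0.062 to 0.036 and Slc25a4 from -0.046 to 0.12. Ckm and Ckmt2, at 10 or fewer counts over all libraries of a genotype, did not enter the test.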

Other observations

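The other kinases that pass phosphate between nucleotides, which work beside creatine kinase, were higher for 4 of 9 tested and lower for 2 (median log2 fold change 0.18). The matrix adenylate kinase genes Ak3 and Ak4 had log2 fold changes of 0.76 and 0.39 and both passed, as did the cytosolic UMP/CMP kinase gene Cmpk1 (0.84). Ak1, the main cytosolic adenylate kinase, was at 92.5 ± 4.93 CPM in knockout cultures and 172 ± 10.5 CPM in wild-type cultures (SD, n = 3 each; log2 fold change -0.90, edgeR adjusted p = 1.01e-05). Ak5, a cytosolic form known from brain, was at 0.946 ± 0.247 against 3.83 ± 0.162 CPM (log2 fold change -2.001). The cytosolic members that fell, Ak1 and Ak5, thus moved in the direction of Ckb, and the matrix members Ak3 and Ak4 in the other; these placements are background and this grouping was made after the values were seen.

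Of 6 other small-molecule methyltransferases tested, which like Gamt use S-adenosylmethionine, 2 were higher and 0 lower (median log2 fold change 0.51). Hnmt, of histamine breakdown, was at 3.96 ± 0.429 CPM in knockout cultures and 1.03 ± 0.554 CPM in wild-type cultures, a log2 fold change of 1.95 with an edgeR adjusted p of 0.000772.

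Among the remaining marker lists, endothelium had 1 of 7 tested genes higher (Tek, log2 fold change 0.37, lost under 8 of 13 alternatives) and 0 lower, with sums of 25.4 to 35.9 CPM in knockout and 23.3 to 29.3 CPM in wild type. Nerve and glia had 2 of 5 tested higher and 3 lower, with sums of 75.6 to 98.5 CPM in knockout and 210 to 240 CPM in wild type, carried by Ncam1 at 37.2 ± 6.42 against 175 ± 10.6 CPM.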
